A study of Homo sapiens with 19 samples.

Results

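The exons described here are the cassette exons whose length could be divided by 3 and lay from 28 nt to just under 300 nt. They were chosen by length alone, from every skipped exon event listed in any of the 3 comparisons of the series. They made up 28887 of 73389 events (39.4%), on 20924 of 52720 exons and in 8521 of 11705 genes. Another 40702 events (55.5%) had exons in the same length range whose length could not be divided by 3, called frame-shifting here. Exons under 28 nt gave 709 events and exons of 300 nt or more gave 3091. An event is an exon together with the exons it is joined to, so 5514 of the 20924 exons stood in more than 1 event and 1 of them in 15.

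The RNA came from HMLE/Twist-ER cells, a line of TERT-immortalized human mammary epithelial cells that carries the transcription factor Twist fused to an estrogen receptor. Untreated cells stayed in the epithelial state (EPI), and 20 nM tamoxifen, kept up until the cells looked mesenchymal, gave the mesenchymal state (MES). Lentiviral vectors had stably introduced either a non-specific shRNA (control) or an shRNA against AKAP8, a nuclear anchoring protein that binds RNA (AKAP8 knockdown). There were 3 EPI control, 3 EPI knockdown, 3 MES control and 2 MES knockdown libraries of stranded polyA-selected RNA, all from 1 line, so the tests below measure the spread between cultures of that line. The third MES control library entered the comparison of EPI with MES control cells, the test of knockdown effects between the states and the summaries by library, but not the comparison of knockdown with control in MES cells. Junction reads summed over the skipped exon events came to between 31258177 and 40852217 per library, where a read could count in more than 1 event. Of these sums 44.4% to 56.1% fell on the frame-preserving exons.

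A cassette exon is either spliced into the mRNA or skipped together with its flanking introns. When such an exon lies within coding sequence and its length is a multiple of 3, both mRNA forms keep the same reading frame after the exon, and the proteins differ by an inserted stretch of residues. An exon of another length shifts the frame, often reaches an early stop codon, and can send the mRNA to nonsense-mediated decay. Many exons known for switching in the epithelial-mesenchymal transition (EMT), in CD44 for example, are of the frame-preserving kind.

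Inclusion is given as percent spliced in (PSI), the share of junction reads, corrected for the number of junction positions, that support the form with the exon. An exon that stood in several events was represented by the event with the most reads, and exons were ranked on that event, 1 per gene. The exons at either end of these rankings, which took only exons whose groups did not overlap in PSI, were as follows in GRCh37. Each exon is printed in capitals with 20 nt of intron on each side in lower case, on the transcript strand. ARHGEF11 (chr1:156908210-156908305, minus strand) and RALGPS2 (chr1:178861365-178861442, plus strand) had the largest gain and loss of inclusion in EMT by this ranking, which leaves aside larger losses in CD44, on exons that had a still better covered event with a smaller change. FNBP1 (chr9:132686123-132686218, minus) and ADD3 (chr10:111892063-111892158, plus) held those places for AKAP8 knockdown in EPI cells, and ZNF207 (chr17:30693684-30693776, plus) and ADGRG6 (chr6:142704897-142704980, plus) for knockdown in MES cells. RAI14 (chr5:34813679-34813765, plus) and APLP2 (chr11:129993507-129993674, plus) changed in both knockdown comparisons. RAI14 and APLP2 were picked for display after their values were seen.
ARHGEF11: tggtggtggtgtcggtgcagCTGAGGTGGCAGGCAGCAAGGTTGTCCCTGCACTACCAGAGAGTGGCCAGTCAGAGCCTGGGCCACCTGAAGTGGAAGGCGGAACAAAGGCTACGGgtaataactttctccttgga
RALGPS2: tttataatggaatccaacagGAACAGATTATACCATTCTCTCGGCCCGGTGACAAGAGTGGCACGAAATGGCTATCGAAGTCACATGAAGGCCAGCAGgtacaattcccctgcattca
FNBP1: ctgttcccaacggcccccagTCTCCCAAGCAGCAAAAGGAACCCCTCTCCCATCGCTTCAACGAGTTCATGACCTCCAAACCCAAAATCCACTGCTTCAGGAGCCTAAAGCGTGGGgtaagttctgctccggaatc
ADD3: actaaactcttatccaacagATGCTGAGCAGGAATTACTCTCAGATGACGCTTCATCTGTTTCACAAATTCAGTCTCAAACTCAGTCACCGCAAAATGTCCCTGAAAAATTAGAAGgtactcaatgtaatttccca
ZNF207: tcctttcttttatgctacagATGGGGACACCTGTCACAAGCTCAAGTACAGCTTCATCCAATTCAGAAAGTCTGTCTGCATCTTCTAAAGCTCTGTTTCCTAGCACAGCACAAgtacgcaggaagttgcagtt
ADGRG6: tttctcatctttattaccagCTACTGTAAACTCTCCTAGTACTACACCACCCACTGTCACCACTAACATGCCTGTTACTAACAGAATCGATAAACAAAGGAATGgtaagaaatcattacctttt
RAI14: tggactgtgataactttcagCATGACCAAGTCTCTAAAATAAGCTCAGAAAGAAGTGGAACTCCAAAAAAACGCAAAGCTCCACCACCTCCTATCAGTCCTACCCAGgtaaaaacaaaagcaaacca
APLP2: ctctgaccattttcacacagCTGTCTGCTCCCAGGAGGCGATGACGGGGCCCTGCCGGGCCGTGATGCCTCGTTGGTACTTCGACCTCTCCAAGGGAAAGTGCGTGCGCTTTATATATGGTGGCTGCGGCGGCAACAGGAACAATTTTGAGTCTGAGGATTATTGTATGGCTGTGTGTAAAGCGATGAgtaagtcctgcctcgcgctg

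The states and the knockdown were first checked on the junction reads of marker genes, scaled to a common number of junction reads over the events found in all 3 tables (CPM). The 4 epithelial markers with an event, CDH1, ESRP1, OCLN and JUP, were all lower in MES than in EPI control cells, for example 67 against 3.25 for CDH1, the adhesion molecule E-cadherin, and 147 against 8.70 for the splicing factor ESRP1. All 9 mesenchymal markers with an event were higher, among them VIM (1380 against 4333), ZEB2 (0.0726 against 9.59) and COL1A1 (6.64 against 814). EPCAM, CLDN1, KRT5, KRT14, DSP, GRHL2 and CDH2, and the blood and endothelial markers PTPRC and PECAM1, had no event to read. FN1 alone took 48069 CPM in EPI and 157118 in MES control cells, summed over 35 events that can share reads. AKAP8 itself gave 11.4, 12.9 and 10.8 in the EPI control libraries and 5.74, 3.72 and 5.66 in the EPI knockdown libraries. In MES cells it gave 15.9, 7.5 and 10.4 in the controls and 4.0 and 4.6 after knockdown. Control and knockdown libraries did not overlap in either state. Among the 13 markers, knockdown and control libraries of EPI cells stood apart in CDH1 and POSTN, both higher after knockdown. In MES cells they stood apart in 5, with VIM and SPARC higher and ESRP1, ZEB1 and ZEB2 lower after knockdown. These reads join the amount of RNA per cell and the mix of cells, which bulk libraries cannot tell apart.

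Not every exon of suitable length can preserve a frame. Of the 15806 frame-preserving exons with enough reads for the EMT comparison, 14055 (88.9%) lay in coding sequence throughout in Gencode annotation, 598 (3.78%) did so in part, and 1150 (7.28%) were exons outside coding sequence or of non-coding transcripts. Among frame-shifting exons 83.0% were coding throughout. The median length of the frame-preserving exons was 112.5 nt. The coding ones also differed in where in a codon they began: 58.7% started at the first base of a codon, 27.6% at the second and 13.7% at the third, against 38.7%, 33% and 28.3% of the frame-shifting exons. These are counts of annotated exons, with no spread between samples and no test.

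Most of these exons were included nearly always. Over the 12586 frame-preserving events with enough reads in all 4 groups, the median PSI of a library averaged 98.8 (SD 0.188, n = 11 libraries), against 99 for frame-shifting events. It was lower for the frame-preserving events in 11 of 11 libraries, by 0.230 points on average (SD 0.0950). Partly included exons, with a PSI from 10 to 90%, made up 17.0% of frame-preserving and 14.6% of frame-shifting events, and the share was higher for the frame-preserving ones in 11 of 11 libraries, by 1.60 to 2.98 points. Inclusion without a single skipping read was seen in 31.8% and 34.7%.

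The share of partly included frame-preserving exons was compared between the groups. It was 16.4, 17.1 and 16.4% in the EPI controls, 16.8, 17.2 and 16.7% in the EPI knockdown, 17.7, 17.4 and 16.4% in the MES controls, and 17.6 and 17.4% in the MES knockdown libraries. The groups overlapped, except that both MES knockdown libraries lay above all 6 EPI libraries, by at least 0.115 points. The third MES control library resembled the EPI libraries in this share and in the share of exons at full inclusion (35.1%, against 26.9 and 29.0% in the other two).

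**Figure D1:**
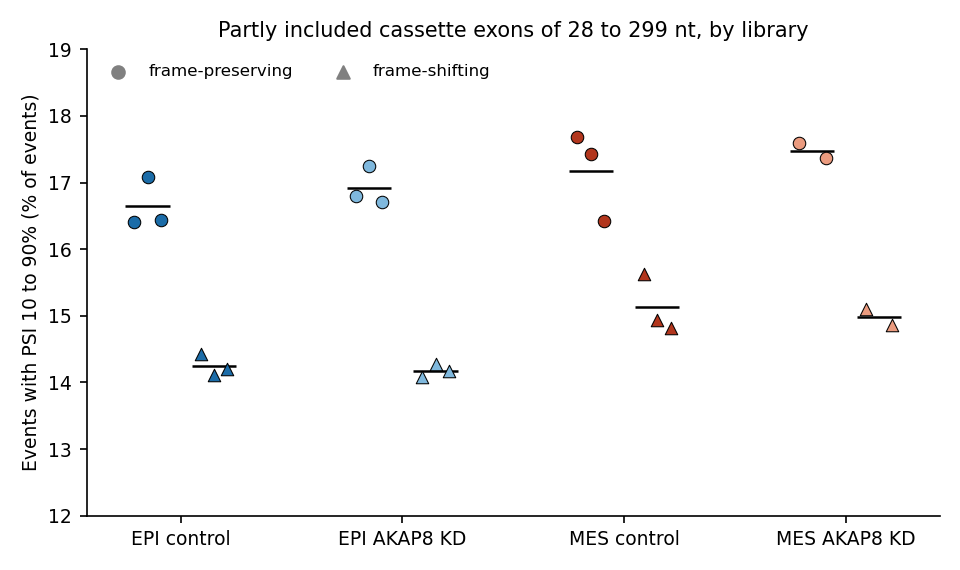
Share of frame-preserving and of frame-shifting events (%) with a PSI from 10 to 90% in each of the 11 libraries, by group; each point is 1 library. The frame-preserving share lies above the frame-shifting share in 11 of 11 libraries, by 1.60 to 2.98 points, while the 4 groups lie between 16.4 and 17.7%.

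EMT in control cells was compared to find which exons switch between the epithelial and the mesenchymal state. Of 22522 frame-preserving events in that table, 19911 passed the minimum of 20 junction reads per library on average. A total of 362 changed (1.82%), at an adjusted p under 0.05 and a difference of at least 10 PSI points in the limma-moderated quasi-binomial test, beside 1.4% of all 49330 events tested. The changed events lay on 332 exons in 289 genes, their median difference was 23.2 points, and EPI and MES libraries did not overlap in 348 of them, as in 661 of the 692 changed events of any length (1.34% of all tested). With limma on the logit of PSI 206 frame-preserving events changed. Inclusion rose in MES cells in 201 and fell in 161, beside 0.772% and 0.63% of all events tested. Frame-shifting events changed in 258 of 27004 cases (0.955%). With each exon counted once, 295 of 15806 frame-preserving exons (1.87%) and 200 of 21189 frame-shifting exons (0.944%) changed. The difference between these shares has no replicate of its own and was not tested.

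Events with a mean PSI from 10 to 90% over both states carried most of the changes, but a change can itself bring an event into this range. Frame-preserving events with a mean PSI from 10 to 90% were 2217 of those tested (11.1%), and 334 of them changed (15.1%). In the same range 219 of 2445 frame-shifting events changed (8.96%), at a median depth of 71 reads against 99. Among events with a mean PSI over 90%, 18 of 16694 frame-preserving (0.108%) and 28 of 23255 frame-shifting events (0.12%) changed. Of the 362 changed events, 127 crossed from one side of 50% to the other, 33 moved by 50 points or more, 141 by 10 to 20 points, and 11 went from under 10% in one state to over 50% in the other.

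Short exons changed most often. From 30 to 60 nt, 99 of 2365 events changed (4.19%), 69 of them toward inclusion. The share was 2.05% from 63 to 99 nt (121 of 5916), 1.39% from 102 to 150 nt (97 of 6959), 0.856% from 153 to 198 nt (27 of 3155) and 1.19% from 201 nt upward (18 of 1516). Changes toward inclusion were 76 of 121 from 63 to 99 nt, 35 of 97 from 102 to 150 nt (35 of 80 without CD44), 15 of 27 from 153 to 198 nt and 6 of 18 above that, so the direction did not follow length evenly. At the edges of the length range, 7 of 84 events with 27 nt exons and 3 of 99 with 30 nt exons changed, as did 2 of 17 with exons of the longest length inside it and 0 of 3 with 300 nt exons.

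**Figure D2:**
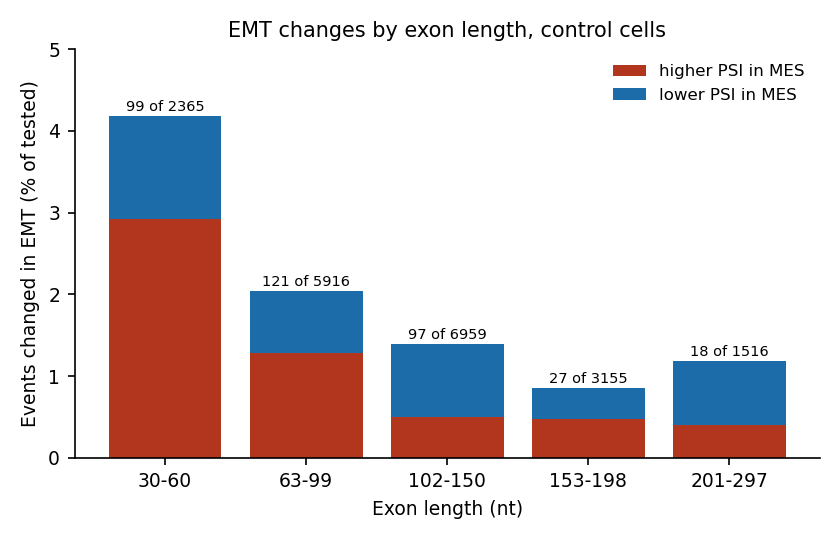
Share of tested frame-preserving events (%) that changed between EPI and MES control cells, by exon length class (nt), split into rise and fall of inclusion; each bar counts events and carries no replicate error. The share falls from 4.19% at 30 to 60 nt to 0.856% at 153 to 198 nt.

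Regulators of small GTPases were among the exons with the largest changes in EMT, ranked by their best-covered events. The 96 nt exon of ARHGEF11, which encodes a guanine nucleotide exchange factor, had a PSI of 0 in all 3 EPI libraries (32, 35 and 33 skipping reads, so that 3 inclusion reads would have given at most 4.57%) and of 89.2, 87.5 and 95.8 in the MES libraries. Inclusion rose by 90.8 points (limma-moderated quasi-binomial test, Benjamini-Hochberg adjusted p = 2.55e-29). The 78 nt exon of RALGPS2, an exchange factor for Ral, went the other way, with 96.1, 93.5 and 88.0 in EPI and 14.4, 28.5 and 32.8 in MES libraries, a change of -67.3 points. The 234 nt exon of ARHGAP17 (chr16:24950685-24950918), a GTPase-activating protein for Rac and Cdc42, rose from 5.63, 3.12 and 8.14 to 62.8, 69.3 and 70.7.

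Junction and polarity genes followed with exons of 36 to 180 nt. The 36 nt exon of MAGI1 (chr3:65433697-65433732), a scaffold of tight junctions, had 5.80, 1.96 and 2.13 in EPI and 91.5, 86.6 and 81.2 in MES cells, a rise of 83.1 points. The 63 nt exon of SCRIB, a polarity protein, rose from 9.84, 11.1 and 12.8 to 70.0, 72.7 and 69.1. CTNND1, the cadherin partner p120 catenin, gained its 180 nt exon (chr11:57558966-57559145), which is only partly coding, from 5.87 ± 3.02 to 40.6 ± 4.77 (SD, n = 3 each), and NUMB, an endocytic adaptor, lost its 144 nt exon (chr14:73745989-73746132), from 49.4 ± 1.12 to 22.1 ± 3.45, a call lost under limma on logit PSI.

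Other exons among the 12 with the largest change, of which 11 are described, served traffic, signalling and transcription. The 57 nt exon of CLSTN1 (chr1:9797556-9797612), which encodes a calsyntenin that links cargo to kinesin, had 34.4, 34.3 and 30.4 in EPI and 94.7, 94.2 and 94.5 in MES libraries. Inclusion rose by 61.4 points (adjusted p = 2.58e-87, limma-moderated quasi-binomial test). OSBPL3, a lipid transfer protein, gained its 93 nt exon (chr7:24902819-24902911) by 61.0 points, and NFYA, a subunit of the CCAAT-binding factor, its 87 nt exon (chr6:41048550-41048636) by 56.2 points. The next 2 exons of this group varied between replicates. The 48 nt exon of MAP2K7 (chr19:7970693-7970740), a kinase of the JNK pathway, read 71.3, 47.5 and 93.4 in MES libraries at 33.3 reads per library, against 15.9, 8.13 and 19.5 in EPI libraries. The 57 nt exon of the sugar phosphate transporter SLC37A2 (chr11:124956100-124956156), only partly coding, fell from 100, 96.5 and 99.5 to 27, 58.4 and 37.4. The last of them, a 144 nt exon of MEG3 (chr14:101302073-101302216), belongs to a long non-coding RNA and preserves no frame. It rose from 26.2, 10.3 and 17.0 to 59.5, 91.3 and 69.9.

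**Figure D3:**
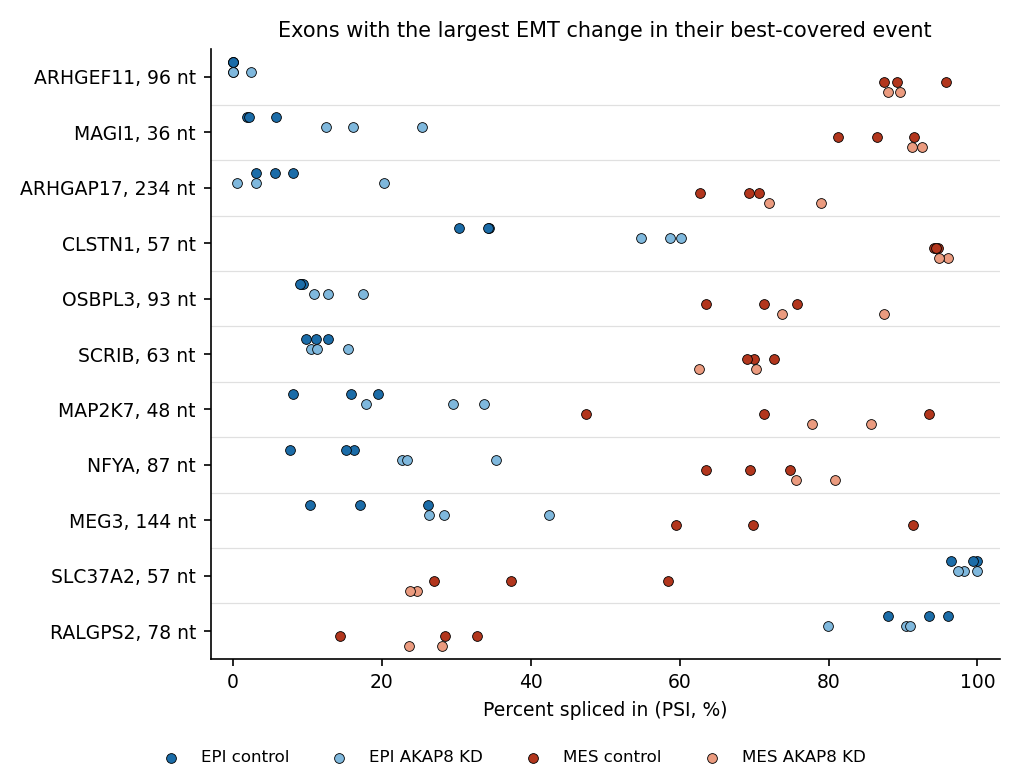
PSI (%) of 11 of the 12 frame-preserving exons with the largest change in EMT in their best-covered event, in the 3 EPI control, 3 EPI knockdown, 3 MES control and 2 MES knockdown libraries, each point 1 library. Exons were drawn only where EPI and MES control libraries did not overlap, and they run from ARHGEF11 (0 in EPI, 87.5 to 95.8 in MES) to RALGPS2 (88.0 to 96.1 in EPI, 14.4 to 32.8 in MES).

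CD44, the hyaluronan receptor, was the gene with the most changed exons. All 22 of its changed events, on 9 exons, went toward skipping in MES cells, and without CD44 the count was 340 events, 201 toward inclusion and 139 toward skipping. The 114 nt exon (chr11:35222629-35222742) had 38.4, 38.5 and 38.7 in EPI and 0.649, 0.316 and 0.421 in MES libraries at 1764 reads per library. An event on the 204 nt exon (chr11:35232793-35232996), named after its values were seen, fell from 87.4 ± 1.03 to 12.2 ± 1.48 at 4253 reads per library, by 75.2 points and so by more than RALGPS2. These events are not independent, since they share junctions and lie in 1 transcript region. The choice of event also mattered for EXOC7, a subunit of the exocyst and likewise named after its values were seen. Its 93 nt exon (chr17:74087224-74087316) rose from 2.75 ± 1.43 to 17.6 ± 7.04 in the best-covered event and from 13.5 ± 7.38 to 91.4 ± 7.16 in another (SD, n = 3 each). VEGFA, SEC31A and MEG3 had 3 changed exons each, and 256 of the 289 genes had 1.

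Gene lists were set up for this tissue, and every frame-preserving exon tested in a listed gene was counted. In the list of genes with an exon known to switch in EMT, 26 of 184 exons changed, beside 1.87% of all frame-preserving exons tested. The 184 were not only the known exons. The changes were 13 in each direction and lay in 22 of 29 genes. The lists were compiled with earlier results of these data known, so their counts are not independent evidence. Of 177 exons in genes of the actin and membrane skeleton 17 changed, 10 toward inclusion, among them MPRIP (63 nt, partly coding, chr17:17083921-17083983), which ties myosin phosphatase to actin, from 26.0 ± 1.74 to 74.9 ± 5.70. Cell junction and polarity genes had 11 of 98 changed, 7 toward inclusion, and surface receptors 8 of 125, 4 in each direction. The median absolute difference over all frame-preserving exons tested was 0.619 points, so most of the exons tested differed little between the states.

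For the lists that follow, the share over all frame-preserving exons tested was 1.87%. Kinases and phosphatases had 11 of 116 exons changed, endocytosis and traffic genes 10 of 121, and exchange factors and GTPase-activating proteins 9 of 129. SLK, a kinase that acts on the cytoskeleton, nearly lost its 93 nt exon (chr10:105770574-105770666), from 51.1 ± 1.10 to 3.74 ± 0.225. DNM1L, which divides mitochondria, went from 83.8 ± 2.04 to 48.5 ± 4.16 at its 33 nt exon (chr12:32891198-32891230). In the list of RNA-binding and splicing genes 9 of 118 exons changed, 7 of them toward inclusion, yet the 54 nt exons of MBNL1 (chr3:152164493-152164546) and MBNL2 (chr13:98009050-98009103), paralogous splicing regulators, fell by 41.8 and 22.6 points. The MBNL2 call was lost without the first EPI control library, without any one MES control library and under limma on logit PSI. Transcription and chromatin genes had 7 of 122 changed, with HDAC7, a histone deacetylase, falling from 78.1 ± 3.20 to 27.5 ± 6.03 at its 111 nt exon (chr12:48189689-48189799). Microtubule and motor genes had 3 of 104 (2.88%), near the share over all. They included a rise at SPAG9 (39 nt, chr17:49053224-49053262), a scaffold for JNK and kinesin, from 4.29 ± 0.527 to 59.2 ± 5.96.

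EMT in AKAP8 knockdown cells used none of the control libraries and so repeated the comparison of states in separate cultures. Of 13062 frame-preserving events tested, 232 changed (1.78%), beside 1.34% of all 31496. Inclusion rose in 109 and fell in 123, beside 0.629% and 0.714% of all events tested. Frame-shifting events changed in 140 of 16842 cases (0.831%). Leaving out the first MES knockdown library brought the count from 232 to 128, and leaving out the third EPI knockdown library to 152. With limma on the logit of PSI it was 11.

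Most exons that changed in control cells moved the same way in knockdown cells. Of 12451 frame-preserving events tested in both, 335 changed in control cells, 229 in knockdown cells and 174 in both, which is 51.9% of the first set and 76.0% of the second. The sign was shared by all 174. Among the 335 from control cells, 328 (97.9%) moved the same way in knockdown cells, against 55.6% of all events tested in both. Across those 335 events Pearson's r between the differences was 0.944 and Spearman's rank coefficient 0.924, with events as the points and the line, the library protocol and, in CD44, the junctions shared between them. The median difference of the 335 was 23.1 points in control cells and 19.7 points, in the same direction, in knockdown cells. For frame-shifting events 82 of 234 (35.0%) changed in both and r was 0.893.

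ARHGEF11 rose by 88.0 points, with 0, 0 and 2.37 in EPI knockdown and 88.0 and 89.6 in MES knockdown libraries. CLSTN1 rose by 37.5 points, from 60.2, 58.7 and 54.8 to 96.1 and 94.8, starting from a higher level than in control cells. Of the gene lists, 24 of 150 exons in the genes with a known EMT exon changed in knockdown cells. So did 14 of 131 actin, 10 of 70 junction and 12 of 92 endocytosis exons, beside 1.82% of all frame-preserving exons tested there.

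**Figure D4:**
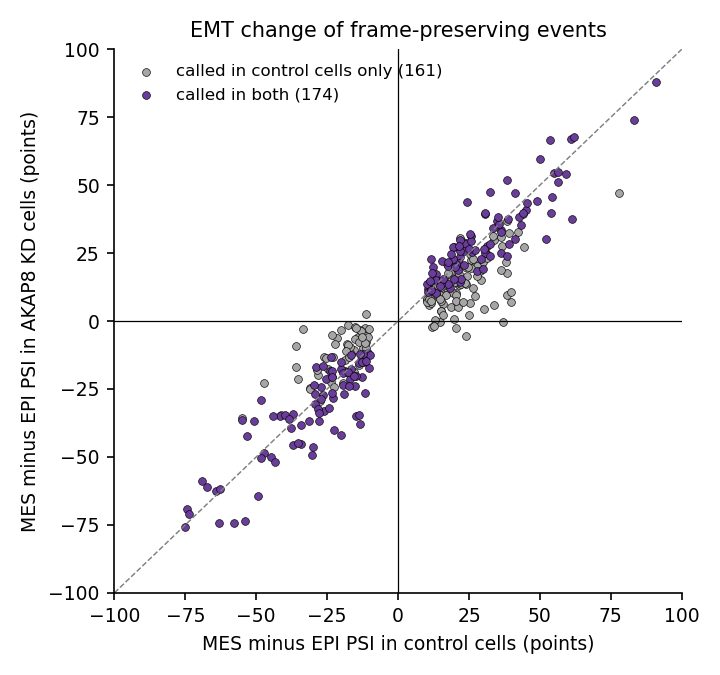
Difference in PSI (points, MES minus EPI) of frame-preserving events changed in control cells, in control cells (x axis) and in AKAP8 knockdown cells (y axis); each point is 1 of 335 events tested in both. The sign is shared by 328 of the 335, with differences of up to 90.8 points in control cells.

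AKAP8 knockdown in EPI cells was compared to find exons that depend on AKAP8 in the epithelial state. Of 19093 frame-preserving events tested, from 21648 in the table, 16 changed (0.0838%), beside 0.0588% of all 47579. Inclusion rose after knockdown in 6 and fell in 10, beside 0.0273% and 0.0315% of all events tested. Of 26110 frame-shifting events 7 changed (0.0268%). At an unadjusted p under 0.05 and 10 points, 155 frame-preserving events (0.812%) passed, beside 0.782% of all events. All 16 changes lay among the 2130 events with a mean PSI from 10 to 90% over control and knockdown libraries. The change helps set this mean: ERBB2IP (92.4 to 77.0) and EHBP1 (91.8 to 80.5) stood above 90% in control cells. The count was 9 without the first or the second EPI control library, 8 without the third EPI control library and 10 without the third knockdown library. It was 28 with the dispersion trend on all reads and 0 when limma was run on the logit of PSI.

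Ranked by best-covered event, and with no overlap between groups, the exons that moved most in EPI cells were those of FNBP1, ADD3, RAI14, SLMAP, CLSTN1, MYO18A, RPAIN and CA12. The ranking leaves out SMC5, a rise of 21.2 points at a 45 nt exon (chr9:72961521-72961565) whose groups overlapped, and a less covered event on the 114 nt exon of CD44, which fell from 44.9 ± 3.09 to 25.9 ± 1.61 (SD, n = 3 each). Both were changed events and are named after their values were seen. The 57 nt exon of CLSTN1 rose from 34.4, 34.3 and 30.4 to 60.2, 58.7 and 54.8, by 24.9 points (limma-moderated quasi-binomial test, adjusted p = 8.48e-11), at 1117 reads per library. The 96 nt exon of ADD3, an adducin that joins actin to spectrin, fell from 62.3, 69.4 and 64.3 to 37.2, 29.6 and 32.7, by 32.2 points on the PSI scale (same test, adjusted p = 3.39e-06). Both kept their call without any one library. The 87 nt exon of RAI14, an actin-associated protein, fell from 81.0, 90.8 and 92.8 to 69.9, 40.8 and 66, and the 90 nt and partly coding exon of SLMAP (chr3:57911572-57911661), a tail-anchored membrane protein, rose from 42.6, 31.9 and 41.9 to 70.1, 53.3 and 72.6. The spread after knockdown was wide in RAI14 and SLMAP. The RAI14 call was lost without the third EPI control library and the SLMAP call without the third knockdown library.

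Smaller or less certain changes made up the rest. MYO18A, an unconventional myosin, gained its 45 nt exon (chr17:27412622-27412666) by 21.9 points (adjusted p = 0.000813, limma-moderated quasi-binomial test), and CA12, a membrane carbonic anhydrase, lost its 33 nt exon (chr15:63620297-63620329) by 16.4 points, with 58.2, 68.4 and 62.8 in control and 48.4, 41.9 and 49.8 in knockdown libraries. The largest difference, 42.2 points at the 96 nt exon of FNBP1, a membrane-bending F-BAR protein, rested on 34.7 reads per library and was lost without any of 5 of the 6 libraries. Its PSI went from 60.5, 45.6 and 61.4 to 100, 94.1 and 100, where the libraries at 100 held 42 and 28 inclusion reads and 3 skipping reads would have given 87.7 and 82.6%. The fall of RPAIN (141 nt, chr17:5331391-5331531), an importer of replication protein A, from 85.4 ± 2.37 to 67.6 ± 5.32 was lost as often. MYO18A lost its call without the second knockdown library and CA12 without the second or the third control library.

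APLP2 and ERBB2IP were the exons named from the gene lists. The 168 nt exon of APLP2, a relative of the amyloid precursor protein, holds its Kunitz inhibitor domain and fell from 66.2, 62.7 and 62.4 to 44.9, 52.8 and 50.9, at 3649 reads per library and without loss of the call when any one library was left out. The 207 nt exon of ERBB2IP (chr5:65370852-65371058), an adaptor at cell junctions, fell by 15.4 points. This call was lost without the third control library and with PSI from uncorrected junction reads. The smallest difference over all settings run was -9.05 points. In genes with a known EMT exon 7 of 179 exons changed, 4 toward inclusion, and in the actin list 4 of 155, beside 0.0925% of all frame-preserving exons tested. Surface receptors had 3 of 118, junctions 1 of 93, and the other 6 lists had none by the limma-moderated quasi-binomial test, which says only that no exon of theirs passed it.

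Knockdown in MES cells changed 11 of 17915 frame-preserving events tested (0.0614%), from 20184 in the table, beside 0.0479% of all 43832. Inclusion rose in 1 and fell in 10 of the 11, beside 0.0114% and 0.0365% of all events tested (5 and 16 events). Frame-shifting events changed in 4 of 23766 cases (0.0168%), all toward skipping, and 201 frame-preserving events (1.12%) passed an unadjusted p under 0.05 and 10 points, beside 1.06% of all events. With 2 libraries a group the count leaned on single libraries: it was 1 without the first MES control library, an exon of ISCU, 6 without the second, 7 without the second knockdown library, 10 with the third control library added, 28 with the dispersion trend on all reads, and 0 with limma on the logit of PSI.

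Some markers of the states stood apart between control and knockdown libraries of MES cells, the mesenchymal ones in both directions. No test was run on them. The splicing factor ESRP1 had 4.89 to 11.9 CPM in the 3 MES control libraries and 3.43 and 4.33 in the knockdown libraries. SPARC, a matrix protein, had 305 to 493 against 635 and 690, and ZEB2, a repressor of epithelial genes, 6.32 to 13.7 against 3.99 and 4.21. Summed over the 4 epithelial markers, the controls had 19.9, 31.6 and 34.3 CPM and the knockdown libraries 14.8 and 22.2, so these sums overlapped. The 9 mesenchymal markers, of which FN1 had the highest CPM, summed to 121423, 203319 and 164067 against 172308 and 229463. In EPI cells the epithelial sums were 304, 328 and 329 in the controls and 375, 337 and 331 after knockdown, which did not overlap. The mesenchymal sums there were 32193, 47562 and 68974 against 41785, 60053 and 62036. The part of these shifts in the changes of inclusion was not tested.

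The 84 nt exon of ADGRG6, an adhesion G protein-coupled receptor, showed the largest fall among exons ranked by best-covered event, from 86.9 and 81.9 to 50 and 48.2, by 35.3 points (limma-moderated quasi-binomial test, adjusted p = 0.00313). The 45 nt exon of the polarity protein PARD3 (chr10:34625127-34625171) fell from 95.6 and 94.3 to 73.0 and 69.4 (same test, adjusted p = 0.000299), and the 33 nt exon of ARAP1 (chr11:72403798-72403830), a GTPase-activating protein for Arf, from 38.1 and 34.8 to 12.9 and 10.9. A less covered event on the 132 nt exon of CD44 (chr11:35227659-35227790), named after its values were seen, fell by slightly more than ADGRG6, from 39.5 ± 3.98 to 4.09 ± 3.39 (SD, n = 2 each) at 51 reads per library. The ADGRG6 call was lost without any one of the 4 libraries, the ARAP1 call without the first control or either knockdown library, and the PARD3 call without the first control library. The 213 nt exon of the lysosomal enzyme PLD3 (chr19:40871625-40871837) lies outside the coding sequence and fell from 79.0 and 82.1 to 57.8 and 56.7. PICALM, a clathrin assembly protein, fell at its 150 nt exon (chr11:85701293-85701442) from 37.1 and 36.4 to 19.7 and 21.5, and SPTAN1, the alpha chain of spectrin, at its 60 nt exon (chr9:131355262-131355321) by 16.8 points. The only rise was in ZNF207, a mitotic zinc-finger protein, whose 93 nt exon went from 46.4 and 36.9 to 66.4 and 51. The calls for PLD3, PICALM, SPTAN1 and ZNF207 were each lost without the first or the second control library, those for PICALM and ZNF207 also without the first knockdown library and that for SPTAN1 without the second. In SPTAN1 and ZNF207 the call did not hold with all 3 control libraries either.

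Of the lists, 3 of 185 exons in genes with a known EMT exon and 3 of 174 actin exons changed in MES cells. All went toward skipping, beside 0.0688% of all frame-preserving exons tested that changed. Endocytosis genes had 1 of 116, surface receptors 1 of 125, junctions 1 of 87, exchange factors and GTPase-activating proteins 1 of 121, and transcription genes 1 of 110. In the lists of kinases, RNA-binding genes and microtubule genes no exon passed the limma-moderated quasi-binomial test.

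**Figure D5:**
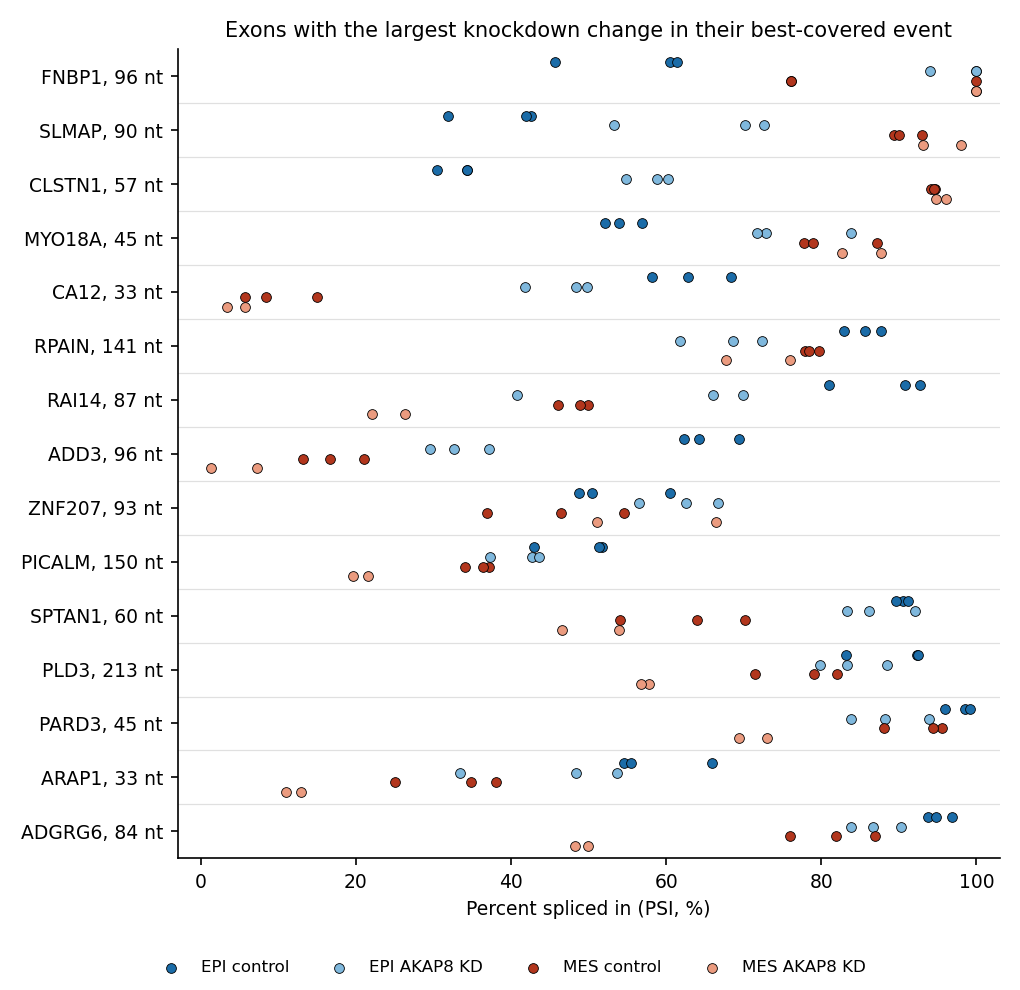
PSI (%) of the exons with the largest change, in their best-covered event, after AKAP8 knockdown in EPI cells (8 exons) and in MES cells (8 exons, RAI14 being in both sets), in all 11 libraries, each point 1 library. The third MES control library is plotted but did not enter the comparison of knockdown with control in MES cells, and of the exons named for MES cells ZNF207 alone rose.

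RAI14 and APLP2 were the frame-preserving exons that changed in both states, 2 of the 14 called in EPI cells (14.3%) and 2 of the 11 in MES cells (18.2%) among 12661 events tested in both. Of frame-shifting events 2 of the 7 called in EPI cells (28.6%) and 2 of the 4 in MES cells (50%) were shared. RAI14 fell in MES cells from 49.9 and 48.9 to 26.4 and 22, and this call was lost without any one library and with the third control added. APLP2 fell from 26.5 and 26.1 to 14.1 and 16.9, by 10.8 points (limma-moderated quasi-binomial test, adjusted p = 5.8e-06), and lost its call without the first control or the first knockdown library. All 14 events called in EPI cells had the same sign in MES cells, and all 11 called in MES cells had it in EPI cells, against 51.6% of all events. The 14 had a median difference of 17.1 points in EPI and 9.75 points, in the same direction, in MES cells.

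Whether the effect of knockdown differed between the states was tested on the log odds of inclusion, over all 11 libraries. Of 12586 frame-preserving events 0 passed, beside 0.00993% of all 30197 events, and of 16074 frame-shifting events 3 did. At an unadjusted p under 0.05 and a difference of 10 points between the effects, 172 frame-preserving events (1.37%) passed, beside 1.47% of all events. The limma-moderated quasi-binomial test without its robust option called 2, HNRNPDL and PTBP1, with the dispersion trend on all reads it called 1, KTN1, and limma on logit PSI called 0. CLSTN1 rose by 24.9 points in EPI and by 0.987 points in MES cells, where it already stood at 94.7 and 94.2, and the difference between these effects had an adjusted p of 0.659 by the limma-moderated quasi-binomial test. ADGRG6 fell by 8.14 points in EPI and by 35.3 points in MES cells, with an adjusted p of 0.771 for the difference by the same test. The MES effects given for both exons used 2 control libraries, whereas the test used all 3. A change in one state and not in the other was therefore not shown to differ between states for any of the named exons.

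Values in the state and knockdown comparisons share control libraries and are given side by side only. ADD3 fell by 32.2 points after knockdown in EPI cells and by 48.4 points in EMT. CLSTN1 rose by 24.9 and 61.4 points, SLMAP by 26.5 and 52.0, and MYO18A by 21.9 and 27. RAI14 fell by 29.3 and 39.9 points, APLP2 by 14.2 and 37.1, CA12 by 16.4 and 53.4, and ERBB2IP by 15.4 and 27. RPAIN changed by -17.8 and -6.70 points, the latter not called, and FNBP1 by 42.2 and 28.3, the latter not called either.

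Sequence around the changed exons was described over exons counted once. Exons gained in MES cells were shorter (median 75 nt) than those lost (102 nt). Lost exons had a higher median GC content (54.9%, against 48.3% in gained and 48.1% in all frame-preserving exons) and shorter introns, with medians of 1098.5 nt before and 1255.5 nt after the exon, against 2240 and 2000 nt over all. Frame-shifting exons lost in MES cells also had a high GC content, at 56.5%, and short introns. Their medians were 563 nt before and 562 nt after the exon, against 2383 and 2128 nt over all frame-shifting exons. Of gained exons 78.7% were coding throughout and of lost exons 77.8%, less than the 88.9% of all, but partly included exons that did not change reached 73.5%. Gained exons started at the first base of a codon in 45.1% and lost exons in 49.0%, against 58.7% of all. Partly included exons that did not change did so in 46.0%, so a low share was not particular to the changed exons.

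Motifs were searched on the transcript strand in the 250 nt on either side of the exon. Where an intron was shorter, the window reached past it, as before SLC37A2 (185 nt) and OSBPL3 (203 nt). TGCATG, the letters bound by RBFOX proteins, lay after 24.3% of the 169 gained exons, after 13.5% of the 126 lost exons and after 7.5% of all frame-preserving exons tested. Before the exon it was found in 8.3% of gained, 19.8% of lost and 7.3% of all. In the comparison of the states in knockdown cells the shares after the exon were 28.7, 14 and 7.7%, and before it 10.9, 24 and 7.6%. Of the 11 exons described for the largest EMT changes, MAGI1, CLSTN1, OSBPL3 and NFYA held it after a gained exon and RALGPS2 before a lost one, whereas ARHGAP17 and SCRIB held it before a gained exon and SLC37A2 after a lost one. ARHGEF11, MAP2K7 and MEG3 held it on neither side. For frame-shifting exons the shares after gained and lost exons were 15.7 and 7.1%, against 7.0% of all.

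ACTAA, the core of the QKI motif, differed less, with 21.3% after gained, 19% after lost and 17.8% after all frame-preserving exons. Before the exon it was found in 17.8% of gained, 23.0% of lost and 17.4% of all. In knockdown cells the shares after the exon were 22.8% of gained, 25% of lost and 17.8% of all. GGTGG, a motif of the ESRP proteins, stood after 26.0% of gained, 38.1% of lost and 31.9% of all exons, against 25.5%, 43.9% and 32.0% for frame-shifting exons. The guanine-rich letters AGGGA, or the forms of them that begin or end with T, which overlap with each other and can overlap with GGTGG, stood after 58.0% of gained, 73.0% of lost and 71.0% of all, against 73.5%, 78.6% and 72.1% for frame-shifting exons. A match gives letters only, and no match was tested for use by a protein.

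AKAP8 binding had been mapped by eCLIP, in which RNA crosslinked to the protein is sequenced and peaks are set against input RNA, with 2 replicates merged in each state. A peak at a log2 enrichment of at least 2 and a −log10 p of at least 3 lay within 1000 nt of 413 of 15806 frame-preserving exons in EPI cells, which is 2.61% (exact binomial 95% interval 2.37 to 2.87, counting error only), against 2.84% of frame-shifting exons. In MES cells it was 1.61% (1.42 to 1.82) and 1.67%. Within the exon itself a peak was found for 10 exons in EPI and 6 in MES cells.

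Exons changed in EMT had an EPI peak nearby in 17 of 295 cases, 5.76% (3.39 to 9.07), and a MES peak in 14, 4.75% (2.62 to 7.83). Gained exons had an EPI peak in 12 of 169 cases and lost exons in 5 of 126, and changed frame-shifting exons in 10 of 200 (5.0%). Of the 14 exons changed by knockdown in EPI cells, CLSTN1, ENTPD6 and TPD52L2 had an EPI peak within 1000 nt. That is 21.4% (4.66 to 50.8), beside 2.61% of all frame-preserving exons. The 14 were also better covered, at a median of 396 reads per library against 259, and the difference in share was not tested. Of the 10 changed in MES cells 0 had a MES peak, which allows a share of up to 30.8% (exact binomial 95% interval).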

How the data were processed

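RNA-seq reads had been aligned by the authors with STAR to GRCh37 with Gencode 24, and skipped exon events had been called with rMATS. The deposited tables list, per event, counts of inclusion and skipping junction reads for each library of a group, which were the values used here. The tables also hold the authors' p-values, FDR, PSI and differences, which were not used, nor was the deposited gene table made with featureCounts 1.5.0 and DESeq2. Libraries are numbered by their place in the list of a table. PSI divides each read count by its number of junction positions. Each event was fitted in R 4.3.3 with a quasi-binomial likelihood-ratio F test whose dispersion was moderated with limma 3.58.1 (squeezeVar, robust, trend on reads of the rarer form, floor 1, events under 10 such reads taking the trend), and p-values were adjusted over all skipped exon events tested. Calls required an adjusted p under 0.05, 10 PSI points and a mean of 20 reads per library. A check of the test on simulated data is not reported here. Depth sets the precision of a PSI, and intervals and floors cover counting error only.

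Members and gene lists were chosen with earlier results of these data known. Named exons are, 1 per gene and without overlap between groups, the 12 largest changes in EMT and the 8 largest per knockdown comparison, and up to 4 called exons per gene list, with the best-covered event standing for an exon. The exons of 1 gene chosen by this rule are not reported here. The deposited eCLIP peaks carry the authors' log2 enrichment over input and −log10 p, with 2 replicates merged. Sequence and annotation came from GRCh37 with Gencode 44, read with Python 3.11.15 and pysam 0.24.0. Other read minimums, difference minimums, dispersion settings, limma on logit PSI, peak limits and leaving out each library were tried.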

Additional observations from a re-analysis of the deposited data

How the results depend on the processing

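No paired analysis was possible because the tables list the libraries of a group in 1 field without replicate numbers. Leaving out each library in turn gave 255 to 396 changed frame-preserving events for EMT in control cells (362 with all), 8 to 18 for knockdown in EPI (16), 1 to 8 for knockdown in MES (11), 128 to 259 for EMT in knockdown cells (232) and 0 to 4 for the interaction (0), the 4 being HNRNPDL, PTBP1, APC and GUK1. Where this left 1 library in a group, it was assumed to vary like the other groups. A minimum difference of 20 points gave 221 for EMT in control cells and 7 and 6 for knockdown in EPI and MES. With limma on logit PSI the counts were 206, 0, 0 and 11 for EMT in control cells, both knockdowns and EMT in knockdown cells. A dispersion trend on all reads gave 28 in each knockdown comparison and 1 for the interaction, and a trend without the robust option gave 2 for the interaction. Without CD44, chosen after seeing the data, 340 events remained for EMT. The share of exons near an eCLIP peak was 1.47% in EPI and 1.01% in MES within 500 nt, 2.92% and 2.13% with all peaks, and 1.2% in MES at a log2 of at least 3. The cause of these shifts was not tested, beyond the fewer libraries or narrower limits that define them. Other count minimums, uncorrected reads and 1 event per exon kept each of the called counts within 1.5 times. Of 57 values for named exons 0 reversed, 34 kept their call without each library and 25 under every alternative run.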

Other observations

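Exons under 28 nt, outside the range described above, changed more often still in EMT, in 32 of 456 events tested (7.02%), and exons of 300 nt or more in 40 of 1959 (2.04%). Both shares are counts of events with no replicate error.

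MBNL1, a splicing regulator, held changed exons of opposite sign. It lost its 54 nt exon in MES cells and gained its 36 nt exon (chr3:152173331-152173366), from 49.0 ± 7.32 to 72.5 ± 2.0 (SD, n = 3 each). The call on the 36 nt exon was lost under limma on logit PSI, and in its other changed event, from 51.1 ± 17.7 to 74.9 ± 5.38, the states overlapped.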
